A study of Homo sapiens with 36 samples.

Results

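RAI1 knockout cells on day 3 of neuronal induction were compared with wild-type cells on day 7, to ask which genes of the older wild-type neurons the younger knockout cells already expressed at a like level and which they lacked. The comparison takes 8 of the 36 libraries of the series, chosen by their titles: the 4 replicates titled KO day 3 and the 4 titled WT day 7. All cells derive from H9, an established human embryonic stem cell line, and became induced neurons (iNeurons) through doxycycline-driven expression of NGN2, the protein of the NEUROG2 gene. Per the labels, KO cells are RAI1-/-, HET cells are RAI1+/- and WT cells carry both alleles. All of them matured in Neurobasal-A with GlutaMAX, B27, GDNF, NT3 and CultureOne. The labels do not say whether a genotype is 1 clone, nor that replicates are separate cultures, so p-values measure the spread between these samples, which may be technical. Genotype and day change together here, and their parts in a difference cannot be told apart. Where HET cells (days 3 and 7) or the undifferentiated KO and WT cells (day 0) are used, they serve as a reference that shares no library with the comparison.

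RAI1 is a nuclear protein that binds chromatin, and loss of 1 copy causes Smith-Magenis syndrome. NGN2 is a proneural basic helix-loop-helix factor: it binds E-box sequences, switches on a cascade of further transcription factors and Notch ligands, and takes pluripotent cells out of the cell cycle into a neuronal fate. Cytoskeletal and RNA-binding proteins of neurons appear early in that course, whereas vesicle, receptor and ion channel genes build up as the cells extend axons and form synapses.

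The 8 libraries held 38.5 to 45.7 M counts (KO day 3) and 35.9 to 47.9 M counts (WT day 7). Levels are given as CPM (counts scaled to a fixed library total) after scaling by edgeR's TMM method. Log2 CPM of replicates correlated across genes with r of 0.953 to 0.982 in KO day 3 and 0.951 to 0.987 in WT day 7, where genes are not independent replicates. The transcripts RN7SK, RMRP, RPPH1, RN7SL1 and RN7SL2, referred to as small structural RNAs, took 4.92%, 3.54%, 14.9% and 18.8% of the KO day 3 libraries and 25.6%, 14.5%, 23.5% and 17.9% of the WT day 7 libraries. In WT day 7 replicate 1, the 27 proliferation genes summed to 664 CPM, the highest of the 4, and the 16 markers of post-mitotic neurons to 8135 CPM, the lowest. Several results are given with and without this replicate, among them the number of calls and the counts of lower genes in several lists.

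RAI1 (ENSG00000108557, chr17:17681473-17811453 in GRCh38 per GENCODE 29), the targeted gene, read 76.5, 107, 65.6 and 37.9 CPM in KO day 3 and 37.5, 49.4, 48.8 and 73.8 CPM in WT day 7. The groups overlapped, and RAI1 was not lower in the libraries labelled KO. The difference was 0.45 on the log2 scale (SE 0.30, adjusted p = 0.292, edgeR's quasi-likelihood test), so the gene counts do not check the KO label. RAI1 overlaps 4 other annotated genes, and whether counting used the strand is not given in the sources used here. Of 2 reported partners of RAI1, neither was called by edgeR on the 8 libraries: PHF14 differed by 0.20 (95% interval -0.17 to 0.57) and TCF20 by 0.48 (0.01 to 0.94). TCF20 was called higher where all 36 libraries entered the edgeR fit (0.48, adjusted p = 0.017).

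Of 20622 genes tested, 5128 (24.9%) differed between KO day 3 and WT day 7 at an adjusted p under 0.05 (edgeR quasi-likelihood test, Benjamini-Hochberg adjustment). KO day 3 was higher for 2749 genes (13.3%) and lower for 2379 (11.5%). A further 8020 genes (38.9%) were not called and had a 95% interval of the log2 difference wholly between -1 and 1; these are described below as within 2-fold. The other 7474 genes were neither called nor placed within 2-fold. Libraries of the groups did not overlap for 5452 genes (26.4%). Leaving out WT day 7 replicate 1 gave 5331 calls. The direction depended on the scale: 53.6% of calls were higher in KO day 3 on counts, but 92.1% of 2064 calls by limma on log2(TPM + 1), where the median of all genes lay at 0.43 instead of -0.02. With TPM rescaled after the small structural RNAs were removed, 61.4% of 3944 calls were higher and the median was 0.08. Log2 differences below are on the count-based scale unless TPM is named. A pair of further edgeR fits, added after the data were seen, addressed the small structural RNAs: the 4 libraries in which they took 14 to 19% (2 against 2) gave 4680 calls, and the share as a covariate gave 4286. They are called the matched libraries and the covariate fit below. The matched libraries are KO day 3 replicates 3 and 4 and WT day 7 replicates 2 and 4. That fit therefore also drops replicate 1 of both groups. The share of small structural RNAs and the choice of libraries cannot be told apart in it. Counts for each gene list are to be read against the shares of all genes: 13.3% higher, 11.5% lower and 38.9% within 2-fold.

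To learn what changes with day in libraries outside the comparison, HET day 7 was set against HET day 3, where 35.5% of 20497 genes were called. By a change of at least 2-fold and a mean of at least 5 CPM in the higher group, 1936 genes rose and 1751 fell. Of the 1922 risen genes tested here, 845 (44.0%) were lower in KO day 3 than in WT day 7, 523 (27.2%) were within 2-fold, 56 were higher and 498 were not decided. WT day 3, set against the same WT day 7 libraries, was lower for 1610 of 1910 risen genes (84.3%, against 21.2% lower among all genes tested in that comparison). Set against WT day 3, KO day 3 was higher for 1023 of 1890 (54.1%, against 13.3% of all genes); this contrast was added after the data were seen, and the 3 comparisons share libraries, so their counts are given side by side only. Of the genes that fell in HET, KO day 3 stayed above WT day 7 for 1039 of 1751 (59.3%), WT day 3 for 1514 of 1746 (86.7%, against 20.6% of all genes), and KO day 3 was below WT day 3 for 692 (39.5%, against 9.86% of all genes). Without WT day 7 replicate 1, 1022 risen genes were lower in KO day 3 and 514 within 2-fold. HET day 7 replicate 1 held 27.5% small structural RNAs, the most of its group. With it left out of the HET fit, 4115 genes rose or fell. Of these, 791 risen genes were lower in KO day 3 and 644 within 2-fold, and 479 fallen genes were within 2-fold instead of 310. On log2(TPM + 1), where the HET sets defined on that scale held 1282 genes, 71 risen genes were lower in KO day 3; after removal of the small structural RNAs there were 537.

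**Figure D1:**
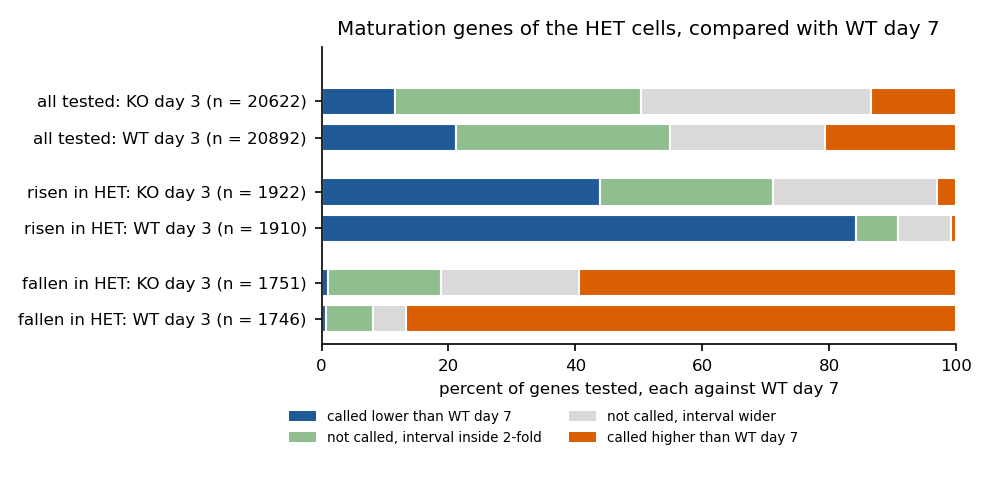
Share of genes (x axis, percent of those tested) called lower than WT day 7, within 2-fold, undecided or called higher, for KO day 3 and WT day 3 against the same WT day 7 libraries. Of the genes that rose in HET, 44.0% were lower in KO day 3 and 84.3% in WT day 3; of those that fell, 59.3% and 86.7% were higher.

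Each library was also placed on the line from the HET day 3 mean (0) to the HET day 7 mean (1) over the 3687 genes that rose or fell in HET. KO day 3 libraries lay at 0.358, 0.242, 0.208 and 0.164 (mean 0.243 ± 0.083, SD, n = 4). WT day 7 libraries lay at 0.486, 0.725, 0.744 and 0.731 (mean 0.672 ± 0.124, SD, n = 4; 0.733 ± 0.010 without replicate 1). WT day 3 was at -0.089 ± 0.026 and KO day 7 at 1.088 ± 0.022 (SD, n = 4 each). KO day 3 and WT day 7 did not overlap, and the gap was smallest between KO day 3 replicate 1 and WT day 7 replicate 1. Neither of these is among the matched libraries, which lay at 0.208 and 0.164 (KO day 3) and 0.725 and 0.731 (WT day 7). With HET day 7 replicate 1 left out of the fit that defines the genes, KO day 3 averaged 0.234 and WT day 7 0.606.

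**Figure D2:**
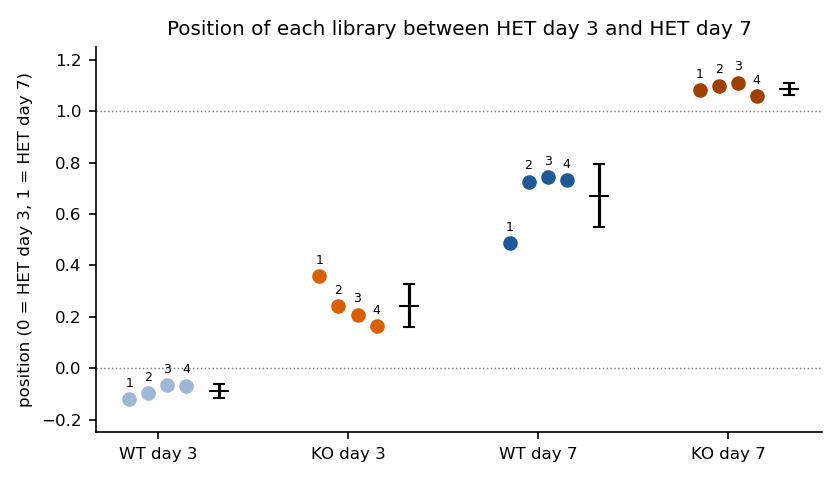
Position of each library (y axis) between HET day 3 at 0 and HET day 7 at 1, with the replicate number above each point and the mean and SD beside each group of 4. KO day 3 runs from 0.164 to 0.358 and WT day 7 from 0.486 to 0.744, with replicate 1 the lowest WT day 7 library.

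Among the genes that rose in HET and were within 2-fold here, several with the highest TPM in WT day 7 have general neuronal functions. NCAM1, a neural cell adhesion molecule, read 673, 931, 683 and 543 CPM in KO day 3 and 398, 888, 862 and 918 CPM in WT day 7. KIF5C, a kinesin motor of axonal transport, read 813, 994, 728 and 484 CPM against 445, 845, 828 and 982 CPM. For both genes the libraries of the groups interleaved, and the log2 differences were -0.12 (interval -0.73 to 0.50) and -0.04 (-0.67 to 0.59). In WT day 3 their means were 182 and 221 CPM. NREP, MLLT11, the surface glycoprotein CD24, the synaptic adhesion protein CADM1 and the Slit receptor ROBO1 belong to the same set, with log2 differences from -0.34 (CADM1) to 0.30 (ROBO1).

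Cytoskeletal genes of neurons were already strongly expressed in KO day 3, and those that differed were nearly all below WT day 7. TUBA1A and TUBB3, tubulin subunits, had mean TPM of 2323 and 1192 in KO day 3 and 1535 and 829.6 in WT day 7, but the counts put both the other way (log2 differences -0.45 and -0.59), and neither was called. Of 25 cytoskeletal genes tested, 8 (32%, against 11.5% of all genes) were lower in KO day 3 and 1 (4%, against 13.3%) was higher. Another 3 (12%, against 38.9%) were within 2-fold, and the median log2 difference was -0.61 (all genes -0.02). In the matched libraries 16 were lower (median -0.96), in the covariate fit 7 (median -0.98). MAPT, which encodes the axonal microtubule protein tau, read 56.9, 54.2, 43.4 and 42.6 CPM in KO day 3 and 78.7, 155, 222 and 173 CPM in WT day 7. All 4 KO libraries were below all 4 WT libraries, and MAPT was lower (log2 difference -1.67, SE 0.27, adjusted p = 0.00148, edgeR). The other genes called lower were TUBB2B, STMN2, STMN4, NEFL, NEFM, NEFH and GAP43, which encode a tubulin, stathmins, neurofilament subunits and a growth cone protein. MAP1A, a microtubule-associated protein of mature neurites, was the gene called higher, at 1171, 1660, 1166 and 1081 CPM against 231, 428, 389 and 496 CPM (log2 difference 1.72, SE 0.26, adjusted p = 0.00102). The count of lower genes rested on single libraries: it was 13 without WT day 7 replicate 1, 2 without WT day 7 replicate 3 and 5 without any 1 of KO day 3 replicates 2, 3 and 4 or WT day 7 replicates 2 and 4. Without WT day 7 replicate 3, STMN2 (adjusted p = 0.126), GAP43 (0.0868), NEFM (0.0766), NEFL (0.0669), TUBB2B (0.0591) and STMN4 (0.0548) were no longer called by edgeR, and MAPT and NEFH were. Without any 1 of the other 5 libraries just named, the genes that lost their call came from STMN2, GAP43, NEFM and TUBB2B, at adjusted p of 0.0504 to 0.0986. On log2(TPM + 1) none was lower and 2 were higher, and NEFH changed sign (0.03).

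Of 17 neuronal RNA-binding and splicing regulators tested, 8 were within 2-fold (47.1%), 2 were higher (11.8%) and 2 lower (11.8%), with a median of 0.20. The higher and lower shares were near those of all genes (13.3% and 11.5%), and the median was -0.24 in the matched libraries and -0.19 in the covariate fit. ELAVL3, a stabiliser of neuronal transcripts, read 356, 374, 374 and 310 CPM in KO day 3 and 221, 275, 308 and 386 CPM in WT day 7, and NOVA2 and RBFOX3 were also within 2-fold. RBFOX1, a splicing regulator, read 42.8, 38.6, 40.9 and 56.4 CPM against 13.4, 7.05, 13.5 and 10.1 CPM, with no overlap (log2 difference 2.02, SE 0.23, adjusted p = 0.000191, edgeR). CELF6 was lower, at 2.52 to 4.02 CPM against 16.5 to 33.2 CPM (log2 difference -2.67, SE 0.27, adjusted p = 8.9e-05). Without KO day 3 replicate 3 or WT day 7 replicate 2 or 3, 1 gene was higher.

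Several core genes of vesicle release were lower in KO day 3. Of 34 presynaptic genes, 13 were lower (38.2%, against 11.5% of all genes) and 4 higher (11.8%, against 13.3%), with a median of -0.61. The 10 within 2-fold made 29.4%, below the 38.9% of all genes. SNAP25, a SNARE protein of vesicle fusion, read 46.5, 39.8, 40.5 and 40.4 CPM in KO day 3 and 90.4, 97.5, 101 and 92.5 CPM in WT day 7 (log2 difference -1.19, SE 0.14, adjusted p = 0.000224). Its partner VAMP2 read 40.9 to 61.2 CPM against 94.7 to 144 CPM, and SYN1, which tethers vesicles, 17.5 to 24 CPM against 31.0 to 62.0 CPM. In each of the 3 genes every KO day 3 library lay below every WT day 7 library. SV2B, a vesicle glycoprotein, was 16.5 to 27.3 CPM against 65.5 to 109 CPM (log2 difference -2.05, SE 0.22, adjusted p = 0.000118), and RAB3A, SYT4, SV2A and RIMS1 were also lower; SV2A changed sign on log2(TPM + 1) (0.04). Other vesicle genes were within 2-fold, which does not show equal levels. SYT1, the calcium sensor of fast release, read 232, 235, 172 and 111 CPM against 97.0, 144, 156 and 190 CPM. Its log2 difference was 0.35 (interval -0.24 to 0.94), and SYP and the active zone scaffold BSN were within 2-fold too. BSN was called lower in the matched libraries (-0.78, adjusted p = 0.0227, edgeR). RIMBP2, an active zone protein, was higher (43.7 to 53.1 CPM against 19.1 to 33.5 CPM, log2 difference 0.88, SE 0.19, adjusted p = 0.00604), as was the dynamin DNM1 (245 to 316 CPM against 156 to 180 CPM). The count of lower genes ran from 11 to 16 when 1 library was left out, and that of higher genes fell to 2 without any 1 of KO day 3 replicates 1 to 3 or WT day 7 replicates 1 to 3, in the matched libraries and in the covariate fit. On log2(TPM + 1) no presynaptic gene was lower and 1 was higher; with the small structural RNAs removed from TPM, 10 were lower and 3 higher.

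Of 31 postsynaptic and trans-synaptic genes tested, 14 were within 2-fold (45.2%), among them the scaffold DLG4, while 4 were higher (12.9%) and 5 lower (16.1%), with a median of -0.09. Among all genes these shares were 38.9%, 13.3% and 11.5%; in the matched libraries and in the covariate fit 8 of the list were lower. CAMK2B, a subunit of the calcium/calmodulin kinase of dendritic spines, read 80.5, 109, 93.0 and 92.4 CPM in KO day 3 and 10.4, 12.4, 17.5 and 22.7 CPM in WT day 7 (log2 difference 2.57, SE 0.24, adjusted p = 5.34e-05). KO day 3 thus lay above all WT day 7 libraries for CAMK2B, and WT day 3, at 63.5 CPM on average, did as well. NRXN3 and NRXN2, which encode presynaptic adhesion receptors, went the other way: NRXN3 read 0.152 to 0.346 CPM against 0.697, 5.91, 4.86 and 4.36 CPM (log2 difference -4.19, SE 0.62, adjusted p = 0.00078) and NRXN2 30.2 to 46.6 CPM against 46.1 to 146 CPM (-1.43, adjusted p = 0.00567).

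Of the glutamate genes, the 2 vesicular transporters differed from each other. SLC17A6 (VGLUT2) read 10.4, 9.46, 14.4 and 3.48 CPM in KO day 3 and 37.2, 74.7, 85.1 and 93.5 CPM in WT day 7, a log2 difference of -2.94 (SE 0.41, adjusted p = 0.000551). SLC17A7 (VGLUT1) read 304, 198, 254 and 303 CPM against 172, 156, 239 and 179 CPM, a log2 difference of 0.50 (interval 0.06 to 0.94) that was not called. By edgeR it was called higher without KO day 3 replicate 2 (0.62, adjusted p = 0.0477) and in the matched libraries (0.72, adjusted p = 0.0424). By limma it was called higher on log2(TPM + 1) (1.34, adjusted p = 0.0438), on log2(TPM + 0.1) (1.37, adjusted p = 0.0249) and on the rescaled TPM (0.66, adjusted p = 0.0464). GRIA2, the AMPA receptor subunit that sets calcium permeability, read 9.41, 4.21, 3.64 and 7.19 CPM against 40.4, 60.3, 44.3 and 31.2 CPM, with no overlap (log2 difference -2.85, SE 0.33, adjusted p = 0.000199). The NMDA receptor subunit GRIN2D (-1.55) and the kainate receptor subunit GRIK3 (-1.87) were lower as well, and the metabotropic receptor GRM2 was higher (0.99), though not called in the matched libraries (0.69, adjusted p = 0.067, edgeR). In all, 5 of 21 glutamate genes were lower (23.8%, against 11.5% of all genes), 3 higher (14.3%, against 13.3%) and 5 within 2-fold (23.8%, against 38.9%), with a median of -0.06. In the matched libraries 7 were lower, 3 higher and 1 within 2-fold (median -0.76), and in the covariate fit 6, 1 and 0 (median -0.79); 1 was higher without WT day 7 replicate 3. Of 22 genes for GABA, glycine and acetylcholine signalling, 5 were lower (22.7%), 2 higher (9.09%) and 6 within 2-fold (27.3%), with a median of -0.07; in the matched libraries 3 were lower and 1 higher (median -0.44). GABBR2, a GABA-B receptor subunit, read 98.2 to 187 CPM in KO day 3 and 2.88 to 9.10 CPM in WT day 7 (log2 difference 4.36, SE 0.37, adjusted p = 2.85e-05). GABBR2 was the 1 higher gene of that list without KO day 3 replicate 2 or 3 or WT day 7 replicate 1, 2 or 3.

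Of 28 voltage-gated sodium and calcium channel genes, 10 were lower (35.7%, against 11.5% of all genes), 2 higher (7.14%, against 13.3%) and 7 within 2-fold (25%, against 38.9%), with a median of -0.39. In the matched libraries 14 were lower (median -1.02) and in the covariate fit 13 (median -1.16). The 10 lower genes were calcium channel subunits; a difference between sodium and calcium channels was not tested. The accessory subunit CACNA2D1 read 69.2 to 139 CPM against 145 to 223 CPM (log2 difference -1.03, adjusted p = 0.00916), and the pore subunits CACNA1D and CACNA1I were lower by 1.88 and 3.82 (log2 differences -1.88 and -3.82). CACNA1G, a low-voltage-activated calcium channel, went the other way, at 11.8, 46.8, 27.2 and 22.2 CPM against 0.333, 0.689, 0.445 and 0.346 CPM (log2 difference 5.87, SE 0.47, adjusted p = 2.01e-05). WT day 3 averaged 2.7 CPM for this gene. SCN8A and CACNA1B were within 2-fold. Of 35 potassium channel genes, 6 were higher (17.1%, against 13.3% of all genes), 8 lower (22.9%, against 11.5%) and 8 within 2-fold (22.9%, against 38.9%), with a median of -0.23. KCNJ6, an inward rectifier, read 220 to 313 CPM against 64.9 to 101 CPM (log2 difference 1.83, adjusted p = 0.00018), while KCNIP4, an accessory protein of A-type channels, read 1.43 to 7.52 CPM against 37.3 to 45.6 CPM (-3.01, adjusted p = 0.000466). KCND3, KCNC2 and KCNH7 were also lower and KCNA4, KCNC1 and KCNH1 higher; KCNC1 was not called in the matched libraries (0.55, adjusted p = 0.111, edgeR). The count of lower potassium channel genes was 5 without KO day 3 replicate 3, WT day 7 replicate 2 or WT day 7 replicate 3. It was 11 without WT day 7 replicate 1, where 13 were within 2-fold.

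**Figure D3:**
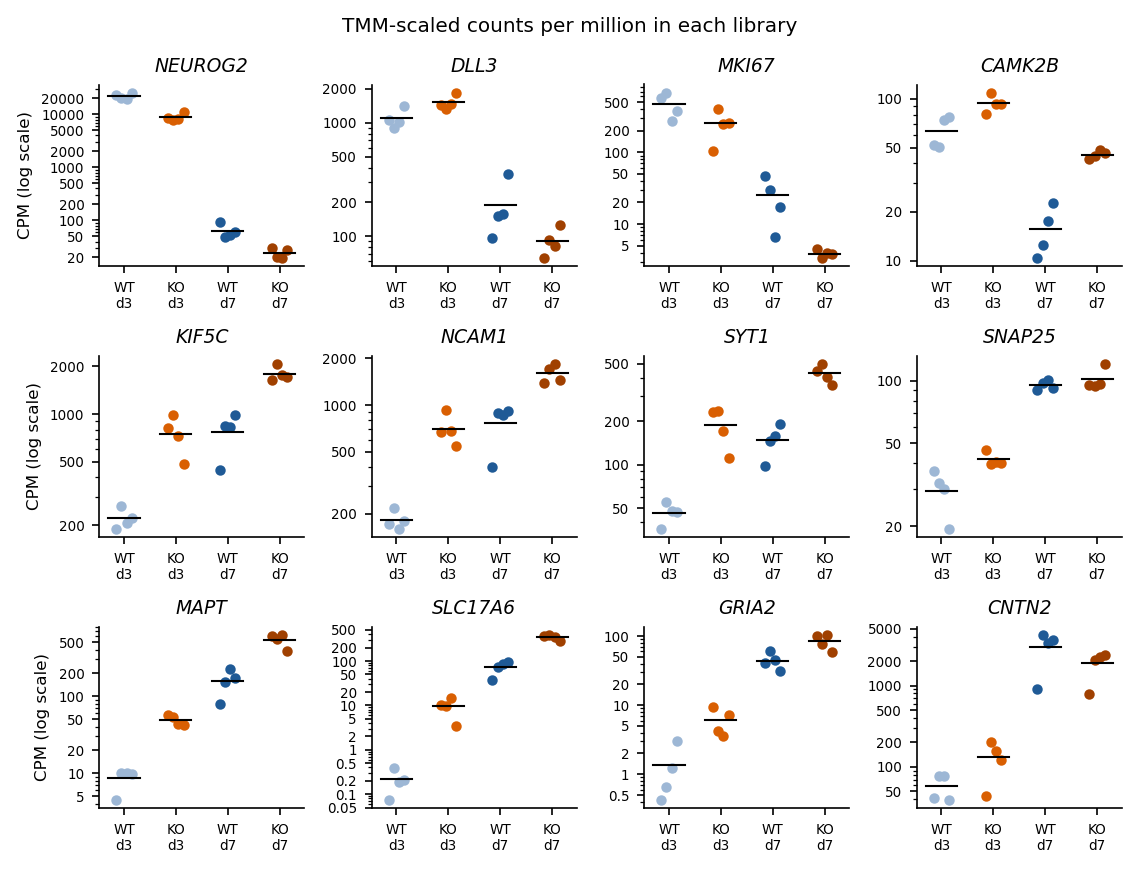
CPM of 12 genes in each library (log y axis), with a line at the mean of each group of 4; the columns are WT day 3, KO day 3, WT day 7 and KO day 7. NEUROG2, DLL3, MKI67 and CAMK2B lie above WT day 7 in KO day 3, KIF5C, NCAM1 and SYT1 interleave with it, and SNAP25, MAPT, SLC17A6, GRIA2 and CNTN2 lie below it.

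Of 23 axonal transport genes, 11 were within 2-fold (47.8%, against 38.9% of all genes), KIF1A among them (log2 difference 0.08, interval -0.68 to 0.84). Another 4 were higher (17.4%, against 13.3%) and 2 lower (8.70%, against 11.5%), and the median was 0.11. This balance turned over in the matched libraries (1 higher, 5 lower, median -0.25) and in the covariate fit (1 higher, 6 lower, median -0.25), and with a replicate block none was lower and 2 were higher. DYNC1I1, a neuronal intermediate chain of dynein, was lower (2.52 to 5.15 CPM against 3.91 to 22.5 CPM, log2 difference -1.91, adjusted p = 0.0119). The higher genes numbered 2 without any 1 of KO day 3 replicates 1 to 3 or WT day 7 replicates 1 to 3.

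Axon guidance genes were called in both directions: 12 of 40 were lower (30%, against 11.5% of all genes), 8 higher (20%, against 13.3%) and 11 within 2-fold (27.5%, against 38.9%), with a median of -0.04, and libraries did not overlap for 19 of 40, against 26.4% of all genes. The Slit receptors differed. ROBO1 was within 2-fold (926, 1066, 874 and 857 CPM against 545, 731, 767 and 974 CPM), and ROBO2 was lower (121, 77.4, 69.3 and 41.9 CPM against 148, 282, 257 and 317 CPM, log2 difference -1.70, SE 0.32, adjusted p = 0.00344). ROBO3, known for its part in midline crossing, read 2.59, 2.21, 1.93 and 3.53 CPM in KO day 3 and 7.91, 170, 120 and 178 CPM in WT day 7 (log2 difference -5.53, SE 0.77, adjusted p = 0.000564). Replicate 1 was the low one in WT day 7, yet still above all KO day 3 libraries. The netrin receptor DCC read 43.7 to 125 CPM against 99.3 to 261 CPM (-1.35, adjusted p = 0.0167) and lost its call without KO day 3 replicate 3 (adjusted p = 0.0577). SEMA3C, a secreted semaphorin, was lower (3.02 to 8.31 CPM against 46.3 to 68.5 CPM, log2 difference -3.41, adjusted p = 3.57e-05), as was the semaphorin receptor NRP1. NTN1, which encodes netrin-1, and its receptor UNC5B were higher (log2 differences 1.37 and 1.59). The higher guidance genes numbered 5 without WT day 7 replicate 2 or 3, in the matched libraries and in the covariate fit. Of 33 neuronal adhesion genes, 9 were lower (27.3%, against 11.5% of all genes) and 1 was higher (3.03%, against 13.3%). Another 11 were within 2-fold (33.3%, against 38.9%), and the median was -0.34. In the matched libraries 12 were lower and 5 within 2-fold (median -0.67). CNTN2 (contactin-2, an axonal adhesion protein) read 43.5, 203, 158 and 120 CPM against 898, 4205, 3299 and 3592 CPM (log2 difference -4.52, SE 0.57, adjusted p = 0.000319). CNTN4, CNTNAP2 and CNTNAP5 were lower and CNTN6 higher (adjusted p = 0.0503 in the covariate fit, edgeR), whereas L1CAM was within 2-fold; 2 adhesion genes were higher without KO day 3 replicate 4.

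NEUROG2, the factor that drives the induction, was higher in KO day 3, and proneural factors and early targets were called in both directions. NEUROG2 read 8667, 7867, 8241 and 11000 CPM in KO day 3 and 94.1, 47.7, 52.3 and 61.6 CPM in WT day 7 (log2 difference 7.12, SE 0.37, adjusted p = 3.01e-06); WT day 3 averaged 22330 CPM. Counts of NEUROG2 cannot tell the doxycycline-driven copy from the cell's own gene, and AC023886.1 overlaps it. Of 35 proneural factors and early targets, 14 were higher (40%, against 13.3% of all genes) and 6 lower (17.1%, against 11.5%). Another 7 were within 2-fold (20%, against 38.9%), and the median was 0.36. DLL3, a Notch ligand, read 1423, 1336, 1452 and 1841 CPM against 95.8, 150, 155 and 356 CPM, with no overlap (log2 difference 3.00, SE 0.38, adjusted p = 0.000301). DLL4, HES6, NEUROD4, NHLH1, INSM2 and GADD45G were higher too, with log2 differences from 1.06 (NHLH1) to 4.71 (INSM2). Other proneural factors were lower: NEUROD1 read 115, 69.1, 106 and 73.0 CPM against 562, 370, 449 and 450 CPM (log2 difference -2.34, SE 0.23, adjusted p = 8.04e-05), and NEUROG1 1.06 to 2.94 CPM against 28.4 to 64.3 CPM (-4.25, adjusted p = 3.99e-05). ID1 and ID2, which encode inhibitors of proneural factors, differed in direction (log2 differences 2.13 and -2.29). INSM1 was within 2-fold. Of 11 Notch receptors and targets, 3 were lower (27.3%, against 11.5% of all genes) and 1 higher (9.09%, against 13.3%). Another 4 were within 2-fold (36.4%, against 38.9%), and the median was -0.09. In this list 1 gene was lower without WT day 7 replicate 1. None was higher without KO day 3 replicate 2 or WT day 7 replicate 2 or 3, and 2 were higher without KO day 3 replicate 1 or WT day 7 replicate 4. The Notch median was 0.30 in the matched libraries.

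All 27 proliferation genes tested were higher in KO day 3 (median 2.60), against 13.3% of all genes. Libraries did not overlap for 25 of the 27, against 26.4% of all genes. MKI67, a marker of cycling cells, read 104, 397, 249 and 259 CPM in KO day 3 and 46.0, 30.2, 6.58 and 17.2 CPM in WT day 7 (log2 difference 3.31, SE 0.57, adjusted p = 0.00192). TOP2A and CDK1 were higher by 3.14 and 2.77. The summed level ran from 1279 to 3037 CPM in KO day 3, 242 to 664 CPM in WT day 7 and 3475 to 5870 CPM in WT day 3, and 24 of the 27 genes were highest in replicate 1 among WT day 7 libraries. In bulk RNA, fewer cells of a type and less RNA per cell cannot be told apart, here and in every result above. The part of cycling cells in the neuronal differences was not tested.

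**Figure D4:**
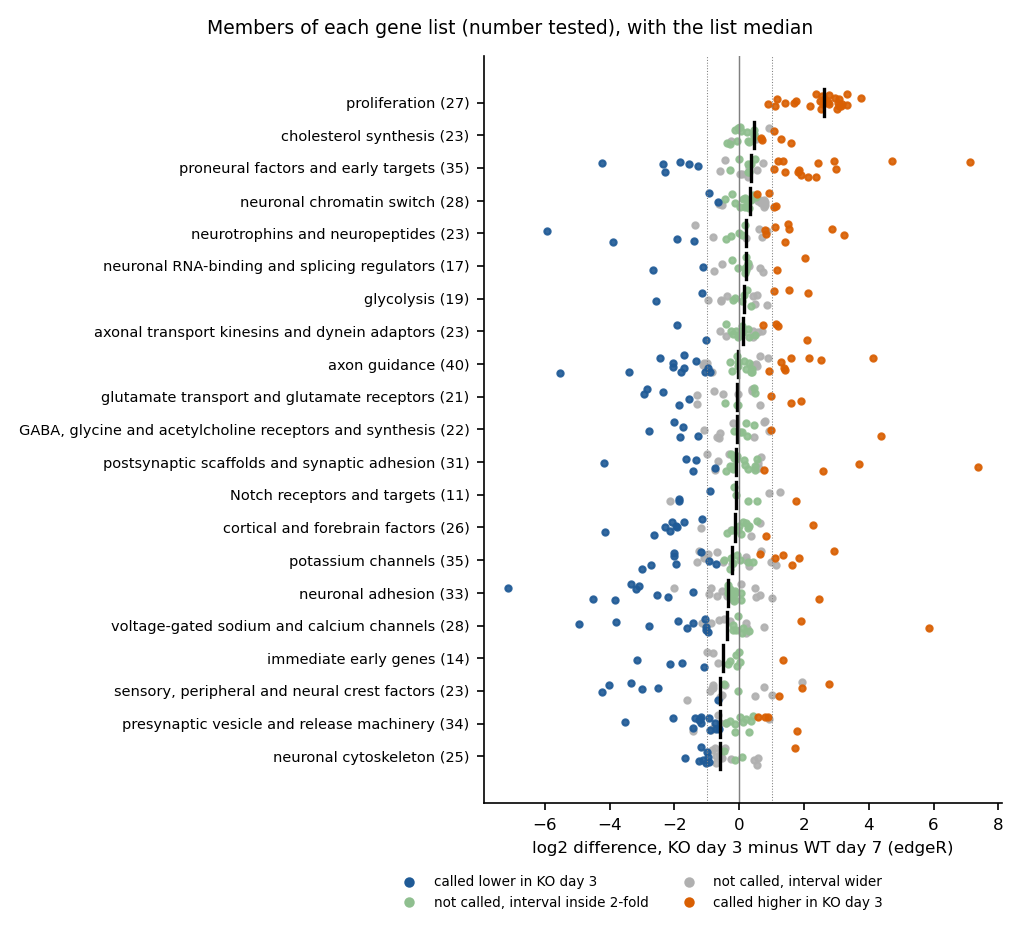
Log2 difference between KO day 3 and WT day 7 (x axis) for each member of 21 gene lists, ordered by list median (black bar), with dotted lines at 2-fold; colour gives the call. The cytoskeletal and presynaptic medians lie at -0.61 and proliferation at 2.60; POU3F4, at 0 counts in every WT day 7 library, is left out of the points.

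The list medians moved with the scale. On log2(TPM + 1) those of the cytoskeletal, presynaptic, sodium and calcium channel, and adhesion genes became positive (0.27, 0.25, 0.12 and 0.13, where all genes had 0.43), and with the small structural RNAs removed from TPM they were -0.38, -0.42, -0.10 and -0.26. All 27 proliferation genes were higher on the rescaled TPM too, and 26 on log2(TPM + 1). List counts also moved without WT day 7 replicate 1. The lower genes then numbered 7 (postsynaptic), 7 (glutamate), 12 (sodium and calcium channels), 15 (axon guidance) and 12 (adhesion). Of the proneural list, 11 were within 2-fold.

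Of 26 cortical and forebrain transcription factors, 9 were lower in KO day 3 (34.6%, against 11.5% of all genes), 3 higher (11.5%, against 13.3%) and 10 within 2-fold (38.5%, against 38.9%), with a median of -0.12. In the matched libraries 6 were within 2-fold (median -0.48), and in the covariate fit 5 were higher. MEF2C, an activity-regulated factor, read 154, 168, 188 and 206 CPM in KO day 3 and 52.8, 28.4, 31.6 and 36.3 CPM in WT day 7 (log2 difference 2.26, SE 0.22, adjusted p = 7.5e-05), and SOX5 was also higher. BCL11A and NFIB were lower (log2 differences -2.07 and -2.29; BCL11A was not called in the covariate fit, adjusted p = 0.124, edgeR), and BCL11B read 0 to 0.551 CPM against 1.18 to 4.85 CPM. SOX11, a factor of immature neurons, was within 2-fold (-0.03, interval -0.52 to 0.47). Without WT day 7 replicate 1, 5 cortical and forebrain factors were higher. Of 23 sensory, peripheral and neural crest factors, 6 were lower (26.1%), 3 higher (13.0%), 2 within 2-fold and 12 undecided (median -0.58). LHX9, a LIM-homeodomain factor, read 14.5, 1.76, 3.55 and 1.31 CPM against 70.9, 70.0, 83.9 and 121 CPM (log2 difference -4.03, SE 0.68, adjusted p = 0.00182, edgeR). DRGX, a nociceptor factor, was higher but low (2.42 to 6.8 CPM in KO day 3). The sensory factors POU4F1 and ISL1 were not called by edgeR with its default filter on all 8 libraries, but DESeq2 called both (ISL1 -0.89, adjusted p = 0.0341; POU4F1 1.03, adjusted p = 0.036), as did edgeR with no filter (adjusted p = 0.0428 and 0.0307). ISL1 was also called lower in the matched libraries (-1.47, adjusted p = 0.00256). By edgeR, POU4F1 was higher without KO day 3 replicate 4 (log2 difference 1.27, adjusted p = 0.00825), and ISL1 lower without KO day 3 replicate 1 (-1.13, adjusted p = 0.0300) or WT day 7 replicate 1 (-1.14, adjusted p = 0.00669).

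Of 23 neurotrophin and neuropeptide genes, 8 were higher (34.8%, against 13.3% of all genes), 4 lower (17.4%, against 11.5%) and 5 within 2-fold (21.7%, against 38.9%), with a median of 0.22; the difference between the directions was not tested. NPTX1, a secreted pentraxin that clusters AMPA receptors, read 74.8, 70.1, 64.1 and 53.9 CPM in KO day 3 and 2.82, 6.6, 8.68 and 9.83 CPM in WT day 7 (log2 difference 3.23, SE 0.33, adjusted p = 8.9e-05), and its relative NPTX2 168 to 304 CPM against 28.7 to 45.6 CPM. The neurotrophin receptor NGFR was higher (239 to 361 CPM against 68.2 to 151 CPM), as was the neurotrophin NTF3. The neurotrophin receptor NTRK2 was lower (0.0217 to 0.321 CPM against 0.333 to 3.09 CPM). SST, the neuropeptide somatostatin, read 3.23, 5.29, 20.1 and 6.18 CPM against 93.7, 684, 586 and 758 CPM (log2 difference -5.94, SE 0.77, adjusted p = 0.000356). The higher genes numbered 5 without KO day 3 replicate 3, WT day 7 replicate 2 or WT day 7 replicate 3.

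Of 28 genes of the neuronal chromatin switch, 13 were within 2-fold (46.4%, against 38.9% of all genes), 4 higher (14.3%, against 13.3%) and 2 lower (7.14%, against 11.5%), with a median of 0.34 (0.09 in the matched libraries). The DNA methyltransferase DNMT1 and the remodeller CHD3 were higher (log2 differences 1.06 and 1.13), and the DNA demethylases TET1 and TET2 lower (-0.66 and -0.92); TET1 changed sign on log2(TPM + 1) (0.21). Neither DNMT1 nor CHD3 was called in the covariate fit (adjusted p = 0.0978 and 0.154, edgeR). The count of lower genes rose to 5 without WT day 7 replicate 1, and that of higher genes fell to 2 without WT day 7 replicate 2 and in the covariate fit. Of 23 cholesterol synthesis genes, 5 were higher (21.7%), none was lower and 13 were within 2-fold (56.5%), with a median of 0.44; 8 were within 2-fold in the covariate fit. The 5 higher cholesterol genes became 2 without KO day 3 replicate 3 or WT day 7 replicate 2 and 3 without KO day 3 replicate 1 or WT day 7 replicate 3. Of 19 glycolysis genes, 3 were higher (15.8%), 2 lower (10.5%) and 6 within 2-fold (31.6%), against 13.3%, 11.5% and 38.9% of all genes, with a median of 0.16; 5 were higher in the matched libraries. The glucose transporters SLC2A1 and SLC2A3 were higher (2.13 and 1.55), while ENO2, the neuronal enolase, read 25.8, 40.8, 47.8 and 74.6 CPM against 171, 275, 464 and 215 CPM (-2.57, SE 0.37, adjusted p = 0.000681) and GPI was also lower (not called in the covariate fit, adjusted p = 0.0583, edgeR). Of 14 immediate early genes, 4 were lower (28.6%), 1 higher (7.14%) and 6 within 2-fold (42.9%), with a median of -0.51; 3 and 2 were lower in the matched libraries and the covariate fit. EGR1 read 0.670 to 1.34 CPM against 2.07 to 3.91 CPM, and ARC, the higher one, 9.49 to 21.6 CPM against 4.45 to 9.46 CPM, not called in the matched libraries (0.89, adjusted p = 0.1, edgeR).

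The called genes were then sorted by whether they passed, in the same direction, between HET day 3 and HET day 7, or between KO and WT cells at day 0, where 462 of 19635 genes (2.35%) were called. Of the 2749 higher genes, 1555 (56.6%) went with day in HET only, 126 (4.58%) with the lines at day 0 only, 42 with both and 1026 (37.3%) with neither. Of the 2379 lower genes, 1293 (54.4%) went with day only, 26 with the lines only, 11 with both and 1049 (44.1%) with neither. Beside these, 82 higher and 38 lower genes were called in the opposite direction to day in HET. In HET, 35.5% of 20497 genes were called by day in either direction. The sorting drew on 3423 and 3563 HET day calls in the higher and lower directions, and on 328 and 85 day 0 calls. The count with neither, 2075 in all, depended on the libraries and the fit. It was 1208 of 3469 calls without WT day 7 replicate 3 and 1216 of 4286 in the covariate fit. Without KO day 3 replicate 4 it was 3103 of 6031.

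The 10 largest rises chosen by the rule for named genes were all genes that already separated the lines at day 0. POU3F4, a POU-domain factor of the developing brain and ear, read 71.3, 30.0, 64.2 and 66.3 CPM in KO day 3 and 0 counts in every WT day 7 library, at least 638-fold higher against a floor of 3 counts per library. MAGEH1 and CRYZ were also at 0 counts in all WT day 7 libraries and at least 455-fold and at least 422-fold higher in KO day 3; CRYZ overlaps TYW3 and POU3F4 overlaps Z82170.1. LRRTM3, a synaptic adhesion protein, read 38.0, 25.3, 24 and 56.7 CPM against 0.0693 to 0.309 CPM (log2 difference 7.38, SE 0.46, adjusted p = 4.63e-06); it lies inside CTNNA3. All 4 were higher in KO than in WT cells at day 0 as well.

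Of the 10 largest falls, 9 went with day in HET, SST among them. The other, NLRP2, an inflammasome-family gene that overlaps NLRP7, had 0 counts in every KO day 3 library and 19.4, 25, 28.6 and 37.9 CPM in WT day 7, and it went with both day and the lines. SYNPR, a vesicle protein, read 0.0217 to 0.239 CPM in KO day 3 and 1.64, 24.6, 15 and 20.1 CPM in WT day 7. The extracellular matrix gene TNC read 0.272 to 2.60 CPM against 17.8, 164, 67.7 and 105 CPM, and the adhesion gene OPCML 0 to 0.0839 CPM (at most 3 counts) against 1.64, 15.5, 8.95 and 3.42 CPM. In KO day 7 these 3 averaged 16.0, 395 and 228 CPM. WT day 7 replicate 1 held the lowest value of the 4 for each of them, above all KO day 3 libraries.

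Promoters are shown for the 2 list members with the largest rise and the 2 with the largest fall, among those called that have a RefSeq promoter entry and reach 20 CPM, since NGN2 acts through E-boxes. Each runs from 250 bases before to 50 after the RefSeq start (GRCh38.p14), in the direction of transcription, with each E-box (CANNTG, a palindromic pattern read on both strands at once) in capitals.
POU3F4: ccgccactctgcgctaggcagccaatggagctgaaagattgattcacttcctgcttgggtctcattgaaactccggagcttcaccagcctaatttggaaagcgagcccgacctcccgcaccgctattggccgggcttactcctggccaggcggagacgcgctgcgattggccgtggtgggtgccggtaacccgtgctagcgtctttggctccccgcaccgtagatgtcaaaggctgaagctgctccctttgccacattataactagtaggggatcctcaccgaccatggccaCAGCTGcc
LRRTM3: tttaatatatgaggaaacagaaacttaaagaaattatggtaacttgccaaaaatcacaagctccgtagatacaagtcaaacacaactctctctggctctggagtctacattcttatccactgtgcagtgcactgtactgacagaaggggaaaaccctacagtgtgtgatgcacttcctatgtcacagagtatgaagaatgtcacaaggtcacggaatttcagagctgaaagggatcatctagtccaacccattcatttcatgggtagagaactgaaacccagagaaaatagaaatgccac
SST: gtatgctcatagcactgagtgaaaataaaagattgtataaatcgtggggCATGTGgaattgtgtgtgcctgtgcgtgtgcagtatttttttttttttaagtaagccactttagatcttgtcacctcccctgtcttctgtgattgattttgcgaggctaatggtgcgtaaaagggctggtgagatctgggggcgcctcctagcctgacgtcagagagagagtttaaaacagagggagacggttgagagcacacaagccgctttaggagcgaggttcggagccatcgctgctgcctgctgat
ROBO3: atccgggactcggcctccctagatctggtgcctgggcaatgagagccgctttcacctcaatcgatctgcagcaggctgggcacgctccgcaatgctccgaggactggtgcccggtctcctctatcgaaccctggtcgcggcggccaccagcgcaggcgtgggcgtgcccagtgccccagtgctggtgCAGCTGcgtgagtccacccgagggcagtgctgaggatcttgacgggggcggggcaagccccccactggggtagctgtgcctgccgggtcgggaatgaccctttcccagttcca
They lie at chrX:83508040-83508339 (plus strand), chr10:67012016-67012315 (plus), chr3:187670345-187670644 (minus) and chr11:124875932-124876231 (plus). The POU3F4 and ROBO3 windows hold 1 E-box each, of the form CAGCTG, the SST window 1 E-box of another form, and the LRRTM3 window none. None holds CATCTG or its reverse complement CAGATG. Among 27305 promoters of this length, 68.9% hold CANNTG, 17.7% CAGCTG and 14.8% CATCTG or CAGATG. Of the 221 called list members, 176 have an entry. CANNTG is in 48 of the 82 entries of members called higher (58.5%) and 61 of the 94 called lower (64.9%). A match is a description of letters and not a binding site.

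Among calls that went with neither day in HET nor the lines at day 0, 3 of the largest falls had lower means at both KO days than in WT day 7. EMP3, a membrane protein, read 0.575 to 1.28 CPM in KO day 3 and 13.7 to 21.8 CPM in WT day 7 (log2 difference -4.41, SE 0.32, adjusted p = 1.23e-05), with a mean of 0.222 CPM in KO day 7 and 2.47 CPM in WT day 3. S100A10, the annexin A2 ligand, read 5.94, 19.2, 24.8 and 19.2 CPM against 300, 176, 217 and 169 CPM (-3.65, adjusted p = 0.000132) and averaged 22.5 CPM in KO day 7. CPLX3, a complexin, showed the same order (0.933 to 3.21 CPM, 12.8 to 23.8 CPM and 0.835 CPM). Among the rises, CCND1, which encodes cyclin D1 and rose with day in HET, opposite to its direction here, read 28.9, 69.7, 103 and 52.1 CPM against 0.727, 5.27, 4.65 and 11 CPM (log2 difference 3.54, SE 0.64, adjusted p = 0.00245). HOXB9 was high in KO day 3 replicate 1, at 18.6 CPM against 0.542 to 1.61 CPM in the other KO day 3 libraries and at most 3 counts in every WT day 7 library. It stayed called without that library and was not called where all 36 libraries entered the fit (adjusted p = 0.0574, edgeR).

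The label of neurons was checked against markers. The 16 markers of post-mitotic neurons summed to 6912 to 11030 CPM in KO day 3, 8135 to 16460 CPM in WT day 7, 1838 to 2257 CPM in WT day 3 and 21230 to 27940 CPM in KO day 7, and none of the 16 was at or under 3 counts in all 8 libraries. DCX and MAP2, of migrating and dendrite-bearing neurons, were not called by edgeR on all 8 libraries (log2 differences -0.52 and 0.46). DCX was called lower in the matched libraries (-1.28, adjusted p = 0.0187) and in the covariate fit (-1.37, adjusted p = 0.00806). Of 9 pluripotency markers tested, 5 were higher in KO day 3 (55.6%) and none lower (median 0.64). Among all genes, 13.3% were higher and 11.5% lower, and the marker counts below are to be read against these shares. LIN28A read 258, 252, 228 and 357 CPM against 12.8, 25.7, 27.1 and 29.7 CPM, POU5F1 0.615 to 6.47 CPM against 0.0606 to 0.166 CPM, and NANOG, TDGF1, ESRG and CDH1 had at most 3 counts in every library. The 16 summed to 844 to 980 CPM in KO day 3 and 353 to 515 CPM in WT day 7. In WT day 3 they summed to 538 to 647 CPM and in KO day 7 to 681 to 790 CPM, so KO lay above WT at both days. Without WT day 7 replicate 3, 3 of the 9 tested were higher. Neural progenitor markers summed to 1048 to 1517 CPM against 973 to 1101 CPM. Of 14 tested, 3 were higher (21.4%, ZIC2 and PROM1 among them) and 3 lower (21.4%, PAX6 among them). Of 8 markers of astrocytes and the oligodendrocyte lineage tested, 3 were higher (37.5%) and 4 lower (50%). OLIG2, an oligodendrocyte-lineage factor, read 10.2, 8.55, 17.0 and 41.4 CPM against 81.7, 126, 192 and 189 CPM (log2 difference -2.93, adjusted p = 0.00162), and OLIG1 was lower too (-3.92). MBP, a myelin protein of the same lineage, was higher (25.9 to 36.5 CPM against 8.27 to 20.6 CPM, log2 difference 1.15, adjusted p = 0.00889, edgeR, and 0.0623 in the covariate fit), and the glutamate transporter SLC1A2 was higher (1.37). Of 12 astrocyte and oligodendrocyte markers, MOG had at most 3 counts in every library, and the sums were 317 to 395 CPM and 216 to 438 CPM. Mesenchymal markers summed to 76.5 to 286 CPM in KO day 3 and 43.2 to 65.3 CPM in WT day 7, with COL1A1 and ACTA2 among 3 of 5 higher (60%). Markers of mesoderm and endoderm summed to 6.52 to 12.1 CPM and 53.4 to 97.6 CPM; CXCR4, also a receptor of migrating neurons, read 5.98 to 11.5 CPM against 53.0 to 97.3 CPM, and TBXT, EOMES, SOX17, FOXA2 and GSC had at most 3 counts. Neural crest and Schwann markers summed to 16.0 to 23.1 CPM and 25 to 65.9 CPM. The part of these cell types in the results above was not tested.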

How the data were processed

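RNA-seq libraries of 36 samples (9 groups of 4) were deposited as gene-level values, with expected counts and TPM held separately. The authors deposited expected counts from RSEM, as whole numbers, and TPM; per the submitters' processing notes the tools were cutadapt 4.8, FastQC 0.11.8, MultiQC 1.20, STAR 2.7.8a and RSEM 1.3.3 with GRCh38. The annotation and the strand setting are not given in the sources used here. FPKM values were not used, and 4 reporter rows were left out. Of 62710 gene IDs, 58274 (92.9%) matched GENCODE 29.

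The 8 libraries were fitted with edgeR 4.0.16 (R 4.3.3; TMM scaling, default expression filter, quasi-likelihood test, Benjamini-Hochberg adjustment over all genes tested). Printed CPM use TMM factors over all libraries. Groups came from sample titles. Samples were not paired by replicate number in the main fit. Deviations of same-numbered libraries correlated at -0.145, 0.429, 0.096 and -0.367, which does not settle whether the numbers pair samples. The fit was tested on simulated counts of KO day 3 against WT day 7 (20292 genes, 200 changed): 37% of 2-fold and 98% of 4-fold changes were found, 5.6% of calls were false and 95.4% of intervals covered the true value. The simulation changed far fewer genes than were called in the data, balanced rises and falls, and held no shift in small structural RNAs. Its rates hold for that setting and do not test the scaling under such a shift. TPM were tested with limma 3.58.1, and DESeq2 1.42.0 was an alternative. The members and gene lists were chosen with earlier results of these data known.

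Named genes were, by rule, the 10 largest rises and falls without overlap between groups (at least 5 CPM in the higher group), the top genes of the HET-defined sets and of the calls that went with neither day nor line, and members of the lists; some genes that the rule names are not reported here. Figures were drawn with matplotlib 3.10.9.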

Additional observations from a re-analysis of the deposited data

Results flagged for a closer look

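In 18 of 331 groups of 4 libraries, 1 library lay apart from the other 3 by Dixon's criterion at 95%; chance gives about 1 in 20 groups, or 17. WT day 7 replicate 1 was apart on the HET axis (0.486), high for BCL11A (33.0 CPM) and CDK1 (28.3 CPM), and low for NCAM1 (398 CPM). Its sums of proliferation genes and of post-mitotic neuron markers did not lie apart by this criterion. WT day 7 replicate 2 was high for CACNA1D (11.5 CPM) and low for SLC1A2 (74.8 CPM), and replicate 3 was high for CELF6 (33.2 CPM) and NPTX2 (45.6 CPM). KO day 3 replicate 1 was high for BCL11B (0.551 CPM), HOXB9 (18.6 CPM), LHX9 (14.5 CPM) and SNAP25 (46.5 CPM) and low for GPI (108 CPM). KO day 3 replicate 2 was high for MAP1A (1660 CPM), PROM1 (17.8 CPM), SOX5 (136 CPM) and TCF20 (205 CPM), and replicate 4 was high for POU5F1 (6.47 CPM).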

How the results depend on the processing

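Over 3328 values of named genes under the alternatives, 3137 kept their direction and side of the threshold, 155 lost their call, 31 gained one and 5 changed sign. The losses were uneven: 49 of 159 genes lost their call on log2(TPM + 1) and 41 on log2(TPM + 0.1). On TPM rescaled without small structural RNAs, 14 of 154 did. MAPT, SNAP25, ROBO2, CACNA2D1, GRIN2D, NRXN2 and NRP1 lost it on the first 2 scales and kept it on the rescaled TPM. The sign changes were NEFH (0.03), SV2A (0.04) and TET1 (0.21) on log2(TPM + 1), and SV2A (0.03) and TET1 (0.22) on log2(TPM + 0.1). On log2(TPM + 1) there were 2064 calls, 1282 HET day genes, 71 risen genes lower in KO day 3, 267 risen genes within 2-fold, 439 fallen genes higher, 661 calls that went with day and 114 calls in the lists. On log2(TPM + 0.1) these were 3245, 1549, 108, 39, 542 and 862 (lists within 1.5 times), with 1409 of all genes within 2-fold. TPM rescaled without small structural RNAs, an alternative chosen after seeing the data, placed 12145 genes within 2-fold and 537 risen genes lower. Risen genes within 2-fold were 344 with libraries of 14 to 19% small structural RNA and 298 with that share as a covariate, both also chosen after seeing the data. Fitting all 36 libraries gave 4754 calls that went with day, a fold threshold of 1.5 gave 2330 calls, and a 1.5-fold margin placed 2216 genes within it. DESeq2 called 6542 genes. The cause of these shifts was not tested.

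Leaving out 1 library gave 3469 calls (without WT day 7 replicate 3) to 6031 (without KO day 3 replicate 4), 7139 to 7761 genes within 2-fold, 613 to 1022 risen genes lower, 460 to 541 risen genes within 2-fold, 821 to 1085 fallen genes higher, 2129 to 3239 calls with day and 180 to 252 calls in lists. Mean axis positions were 0.205 to 0.27 for KO day 3 and 0.647 to 0.733 for WT day 7. With a replicate block there were 3962 calls and 697 risen genes lower; STMN2, NEFL, NEFM, GAP43, DYNC1I1 and ID1 lost their calls under the block. Whether the replicate numbers pair these samples is not settled.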

Other observations

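The tdTomato reporter row of the table, which was left out of the fit, read 16.8, 18, 16.6 and 8.08 CPM in KO day 3 and 28.2, 44.7, 41.3 and 78.8 CPM in WT day 7. Every WT day 7 library was above every KO day 3 library.

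Genes that fell between HET days 3 and 7 yet were lower in KO day 3 than in WT day 7 numbered 19 of 1751 (1.1%). Among all genes, 11.5% were lower. The count ran from 9 (without KO day 3 replicate 3) to 29 (without KO day 3 replicate 4) when 1 library was left out. It was 4 where the set was defined on WT day 7 against WT day 3. NOTCH3, a Notch receptor, and NR3C1, the glucocorticoid receptor, were among the 19 genes (log2 differences -1.85 and -1.52). Ribosomal protein genes RPL7, RPS2 and RPS6, which also fell in HET, were within 2-fold (log2 differences -0.15, -0.05 and -0.09).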
